A study of Homo sapiens with 8 samples.

Results

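The spread between ZBTB48 knockout clones was described from 3 H3K4me3 ChIP-seq peak lists, 1 from each of 3 knockout (KO) clones of U2OS, a human osteosarcoma cell line. Lists were taken by the knockout genotype in their labels and read on chromosomes 1 to 22 and X, which gave 3 of the 8 samples of the series and 70028 of the 139726 peaks in its 6 H3K4me3 lists. The other samples were 3 wild-type (WT) clones with the same mark and 2 inputs from WT cells, which are not analysed here, since only KO clones were compared with each other. Clone 1 carries the label KO_C3, clone 2 KO_C5 and clone 3 KO_E2. All are labelled as ZBTB48 knockouts, came from clones made earlier and are labelled with 24 h of interferon gamma (IFNγ) at 250 U/ml. A figure legend of the study gives a longer treatment for tracks that include this mark. Each clone was measured in 1 library, so a difference between clones has no replicate behind it and none was tested.

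Trimethylation of histone H3 at lysine 4 marks the 5′ ends of active and poised genes, above all at promoters rich in CpG dinucleotides. ZBTB48, also known as TZAP, is a zinc finger protein that binds telomeric repeats and also acts as a transcription factor at a small set of promoters. IFNγ signals through JAK kinases and switches on antiviral genes and, through the coactivator CIITA, the MHC class II genes. Cells cloned from the same line share its genome and history up to the cloning step, and clones of 1 genotype are commonly used as its replicates.

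A region here is the union of overlapping or touching peaks of the 3 KO lists, and a clone calls it where at least 1 bp of a peak of that clone lies in it. A promoter is the window of 1 kb on either side of the 5′ end of a protein-coding gene, and 19970 such windows were scored. The percentile of a peak is its rank within its own clone's list by −log10 p, with 100 the highest. The caller averages −log10 p over a broad peak, so a narrow summit can outrank a wide domain. The list of clone 1 is the longest, so the same rank counted from the top gives a higher percentile there, and no order is read from small differences in percentile between clones. Read counts are missing from the lists, and the methods of the study give depth as a range over samples, not by clone. The depth behind each list is therefore unknown. A region missing from a list was not called there, which does not show that it lacks the mark. Fewer cells carrying the mark and less mark per cell cannot be told apart in such lists.

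The promoters that best separate the clones are shown by sequence, the first named gene of 5 of the 6 patterns of presence. Each line gives the 250 bases before the annotated 5′ end, read 5′ to 3′ on the gene's strand from the GRCh38 reference, with CpG dinucleotides in capitals. INHBE was called in clones 1 and 2, SYK in clones 1 and 3, CHRNB4 in clones 2 and 3, ANXA3 in clone 1 and DNAJC18 in clone 2.
INHBE, chr12:57455057-57455306, plus strand: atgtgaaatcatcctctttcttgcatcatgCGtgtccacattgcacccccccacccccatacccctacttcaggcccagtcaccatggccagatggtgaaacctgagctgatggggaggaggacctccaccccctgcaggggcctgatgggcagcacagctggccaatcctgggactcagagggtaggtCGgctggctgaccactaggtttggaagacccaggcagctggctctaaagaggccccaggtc
SYK, chr9:90801569-90801818, plus strand: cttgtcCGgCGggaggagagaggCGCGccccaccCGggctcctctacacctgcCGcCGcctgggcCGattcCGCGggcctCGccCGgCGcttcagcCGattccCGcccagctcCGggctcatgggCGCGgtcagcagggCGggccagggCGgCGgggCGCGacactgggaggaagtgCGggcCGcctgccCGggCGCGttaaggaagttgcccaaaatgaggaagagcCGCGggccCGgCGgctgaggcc
CHRNB4, chr15:78641211-78641460, minus strand: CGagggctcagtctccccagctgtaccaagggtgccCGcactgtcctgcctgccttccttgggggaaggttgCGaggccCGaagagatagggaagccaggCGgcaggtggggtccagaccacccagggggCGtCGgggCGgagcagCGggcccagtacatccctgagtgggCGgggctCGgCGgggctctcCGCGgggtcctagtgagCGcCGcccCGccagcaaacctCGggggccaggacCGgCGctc
ANXA3, chr4:78551520-78551769, plus strand: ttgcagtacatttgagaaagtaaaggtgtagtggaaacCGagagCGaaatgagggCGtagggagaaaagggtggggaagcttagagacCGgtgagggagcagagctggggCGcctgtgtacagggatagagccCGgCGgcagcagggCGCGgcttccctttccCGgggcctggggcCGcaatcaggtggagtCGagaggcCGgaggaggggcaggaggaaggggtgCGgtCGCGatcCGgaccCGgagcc
DNAJC18, chr5:139439526-139439775, minus strand: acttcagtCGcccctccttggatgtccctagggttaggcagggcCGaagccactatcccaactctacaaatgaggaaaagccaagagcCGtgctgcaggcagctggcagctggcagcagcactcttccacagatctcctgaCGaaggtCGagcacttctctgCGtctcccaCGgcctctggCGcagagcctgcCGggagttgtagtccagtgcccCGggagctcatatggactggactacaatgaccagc
These windows ranged from 2 CpG in INHBE and 10 in DNAJC18 to 32 in SYK, beside a median of 23 in promoters called in all 3 clones, so a promoter that differed between clones could be CpG-poor or CpG-rich.

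The clones agreed at strong regions and parted at weak ones. All 3 clones called 19381 of 28500 regions (68.0%, with a 95% Wilson interval of 67.5 to 68.5), while 2497 (8.76%) were called in 2 and 6622 (23.2%) in 1. Clone 1 accounted for most of the last group, with 4706 regions of its own, against 683 for clone 2 and 1233 for clone 3. The list of clone 1 was also the longest, at 26364 peaks in clone 1, 21707 in clone 2 and 21957 in clone 3. Covered length was 38.6 Mb, 30.9 Mb and 29.1 Mb. When only the 21707 highest peaks of each list were kept, regions of a single clone numbered 1627 for clone 1, 1235 for clone 2 and 1446 for clone 3, so the clones differed less at equal list length. Clones 2 and 3 were the closest pair, with a Jaccard index of covered bases of 0.794, beside 0.730 for clones 1 and 2 and 0.682 for clones 1 and 3. Over the 19381 shared regions the percentiles of 2 clones gave Spearman coefficients between 0.938 and 0.966, a description across regions that are not independent replicates.

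**Figure D1:**
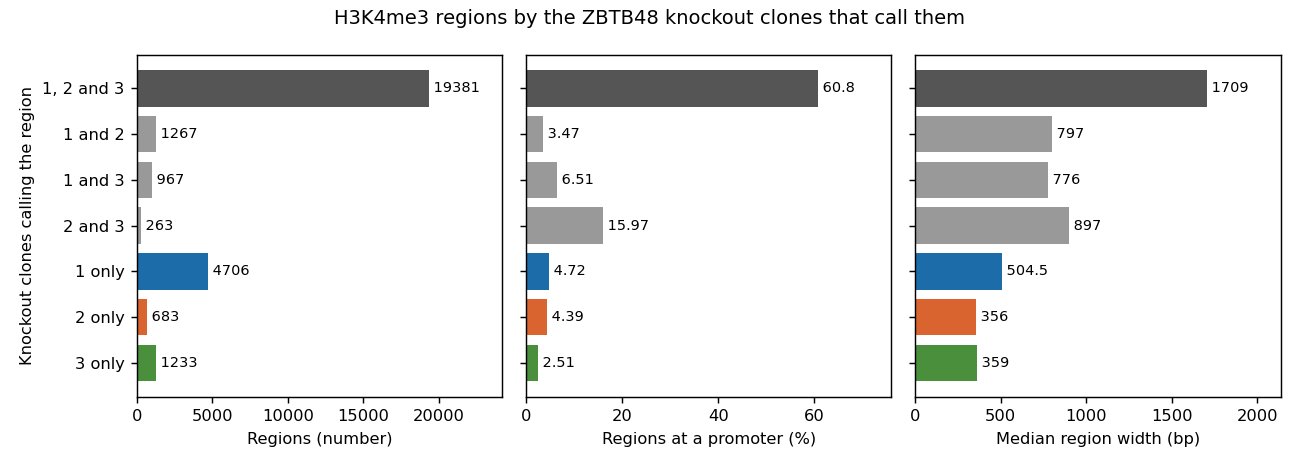
Bars give, for each combination of knockout clones, the number of regions, the percentage at a protein-coding promoter and the median width in bp. The 19381 regions of all 3 clones were the widest, at 1709 bp, and 60.8% lay at promoters, while every other combination stayed at 15.97% or below.

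Shared and clone-restricted regions were different kinds of places. Of the regions in all 3 clones 60.8% lay at a protein-coding promoter, compared with 5.97% of those in 2 clones and 4.27% of those in 1. Median widths were 1709 bp, 792 bp and 466 bp in the same order, and median percentiles were 58.7, 14.9 and 9.38. Regions of 1 clone lay mainly in introns (40.02%) and between genes (36.1%), where shared regions had 8.58% and 12.5%. Base composition followed the same split, with a median of 5.09 CpG per 100 bp in shared regions and 1.996 in regions of 1 clone. Few regions of 1 clone were flanks of shared ones, since 4.89% lay within 5 kb of a region called in all 3.

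The regions that clone 1 lacked had another make-up. The 263 regions of clones 2 and 3 alone were few, at 0.923% of all, yet 15.97% of them (interval 12.04 to 20.9) lay at a promoter. In contrast, 3.47% of the 1267 regions that clone 3 lacked and 6.51% of the 967 regions that clone 2 lacked did so. Their median width, 897 bp, was also above the 797 bp and 776 bp of the other pairs. Clone 2 and clone 3 regions of their own were narrow, with medians of 356 bp and 359 bp, against 504.5 bp in clone 1.

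Peaks that ranked higher within a list were shared more often. Each list was divided into 10 equal bins by percentile. In bin 1, the lowest, 9.10% of clone 1 peaks fell in regions of all 3 clones, compared with 38.4% in clone 2 and 30.0% in clone 3. In bin 4 the shares were 74.2%, 98.8% and 98.6%. From bin 6 upwards 98.98% or more of the peaks of each clone were shared. The regions of all 3 clones made up 73.6% of the regions of clone 1, against 89.8% in clone 2 and 88.7% in clone 3. The lower shares of clone 1 in the low bins therefore go with its longer list. Only 23 of the 6622 regions of 1 clone stood above percentile 50, 22 of them in clone 1, 1 in clone 2 and none in clone 3.

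**Figure D2:**
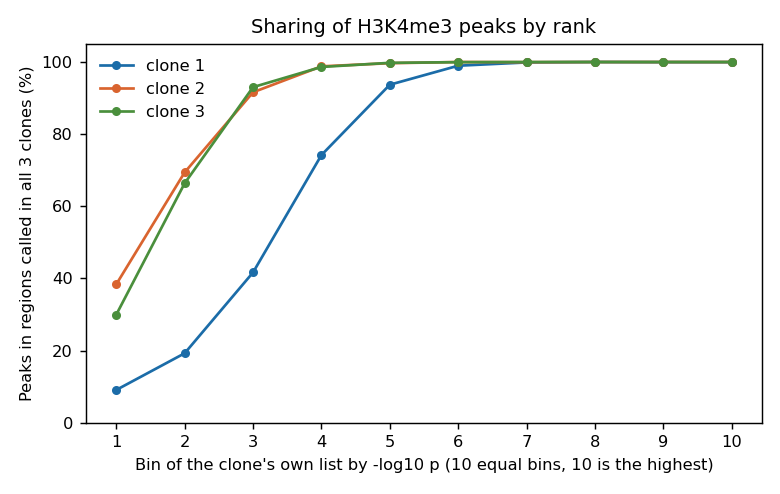
The x axis divides each clone's list into 10 equal bins by −log10 p, with 10 the highest, and the y axis gives the percentage of peaks in regions called in all 3 clones. Clone 1, whose list is the longest, lies below the other clones in the lower bins, at 9.10% in bin 1. The 3 lines meet near 100% from bin 6.

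Promoters were more uniform than regions as a whole. Clone 1 called 13573 promoters, clone 2 13301 and clone 3 13318 (mean 13397 ± 152, SD, n = 3). All 3 clones called 13166 (65.9% of the 19970), none called 6288 (31.5%), and 516 (2.58%) were called in some clones only, which is 3.77% of those called in any. Of the 516, 338 (1.69% of all promoters) were called in 1 clone and 178 (0.891%) in 2. Clone 1 alone called 273 (1.37%), clone 2 alone 32 (0.160%) and clone 3 alone 33 (0.165%). Clones 1 and 2 shared 59 (0.295%), clones 1 and 3 shared 75 (0.376%) and clones 2 and 3 shared 44 (0.220%). For 408 of the 516 no peak of a missing clone lay within 3 kb of the 5′ end, and the remainder had a neighbouring peak there. With clone 1 left out, 199 promoters differed between the remaining clones.

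The differing promoters were weakly marked. In 333 of the 516 the lowest percentile among the calling clones was under 25, and in 40 it was above 50. The 13166 shared promoters had a median lowest percentile of 66.0, against 16.5 for the 516. Of the differing promoters 52.9% held fewer than 10 CpG in the 250 bases before the 5′ end, compared with 7.88% of the shared promoters and 73.5% of those called in no clone. Median CpG counts were 23 in shared, 9 in differing and 4 in uncalled promoters. Promoters called in clone 2 alone had a median of 3 CpG and those of clone 3 alone 4, below the 11 of clone 1 alone.

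Covered length separated the clones even where all had a peak. Over the 13166 shared promoters the median length under peaks within 3 kb of the 5′ end was 1949 bp in clone 1, 1780 bp in clone 2 and 1680 bp in clone 3. Clone 1 was the widest at 10578 of them and clone 3 the narrowest at 9725. The order of widths therefore held at most promoters and was not made by a small number of long domains.

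ZBTB48 itself, on chromosome 1 with its 5′ end at 6579994, kept a promoter peak in all 3 clones. Its percentile was 54.2 in clone 1, 81.7 in clone 2 and 83.1 in clone 3, and this was among the 3 promoters at which clone 1 fell furthest below both other clones. Covered length at ZBTB48 went the other way, with 1855 bp in clone 1, 1555 bp in clone 2 and 1241 bp in clone 3. A histone mark at a promoter does not report whether the protein is made, so these values check no knockout label. Of the 5 genes listed as ZBTB48 targets, 3 were called in all clones, VWA5A in clones 1 and 2, and CIITA in none. The VWA5A peaks were weak, at percentile 14.7 in clone 1 and 3.20 in clone 2. CIITA had no peak within 1 kb of its annotated 5′ end, and the nearest peak, in clone 2, began 1726 bp downstream at percentile 3.89. The nearest peaks of clones 1 and 3 lay 62461 bp and 63632 bp away.

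The widest contrasts were promoters of clone 1 alone. ANXA3, which encodes a calcium-dependent phospholipid-binding annexin, was called in clone 1 at percentile 58.3 with 1140 bp under the peak. The nearest peaks of clone 2 and clone 3 lay 94065 bp and 223493 bp away. CCDC158, also on chromosome 4, stood at percentile 57.9 in clone 1 and CARMIL2, a regulator of actin filament capping, at 56.2. RAET1L, a ligand of the NKG2D receptor of natural killer cells, stood at 54.8, and since it has close paralogues and multimapping reads were removed, its calls are less certain. The rule that chose them asked for no peak of the other clones within 3 kb, so that separation is no finding.

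Promoters missing from clone 1 alone reached lower ranks. CHRNB4, a nicotinic acetylcholine receptor subunit, was called at percentile 40.8 in clone 2 and 46.3 in clone 3, and the nearest clone 1 peak lay 19810 bp away. ASCC2, a subunit of the activating signal cointegrator complex, had percentiles of 40.7 and 44.6. CNIH2, an auxiliary subunit of AMPA receptors, had 39.4 and 39.9. The scaffold gene AHNAK2 had 38.2 and 39.2. The rule chose these 4 by their lower percentile. Their close values in clones 2 and 3, within 6 percentile points, are therefore no finding. CHRNB4 and ASCC2 lay on chromosomes 15 and 22 and AHNAK2 on distal chromosome 14, where clone 1 also ranked low at shared regions. CNIH2 lay on chromosome 11, where clone 1 was lowest at 28.1% of shared regions, against 36.1% over all chromosomes.

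Clones 1 and 3 shared promoters that clone 2 lacked. SYK, a tyrosine kinase of immune receptor signalling, was called at percentile 49.7 in clone 1 and 34.1 in clone 3, with the nearest clone 2 peak 101063 bp away. C1QTNF6, a secreted C1q and tumour necrosis factor related protein, had 47.5 and 30.8. JAK3, the kinase of the common gamma chain cytokine receptors, had 51.8 and 27.6, and PAGE2B, a cancer-testis gene with close paralogues, 37.7 and 29.5. All 4 peaks of clone 3, whose percentiles were the lower ones that the rule chose by, stood between 27.6 and 34.1.

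Clones 1 and 2 shared promoters that clone 3 lacked. INHBE, an inhibin beta subunit of the TGF-beta family, was called at percentile 41.2 in clone 1 and 30.6 in clone 2, with the nearest clone 3 peak 4040 bp away. ARL14, a small GTPase, had 43.8 and 26.8 with none in clone 3 within 77311 bp. The readthrough gene ENSG00000267952 had 33.0 and 27.7, and PRDM7, a histone methyltransferase gene with a close paralogue, 41.1 and 22.97. All 4 peaks of clone 2, again the lower value that the rule chose by, stood between 22.97 and 30.6.

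Promoters of clone 2 alone and of clone 3 alone were the weakest. DNAJC18, a J-domain co-chaperone, stood highest among those of clone 2 at percentile 31.4. It was followed by the protocadherin gene PCDHGA4 at 18.1, the MHC class II alpha chain gene HLA-DRA at 16.3 and the complement receptor gene C3AR1 at 15.7. Of the promoters of clone 3 alone with no other peak within 3 kb, the antiviral cytidine deaminase gene APOBEC3G stood highest at 19.6, before the calmodulin-dependent kinase gene CAMK1G at 18.6, the neuropeptide gene NMB at 18.5 and the testosterone-forming enzyme gene HSD17B3 at 14.9. Of the 32 promoters of clone 2 alone, 31 ranked below percentile 25, as did 32 of the 33 of clone 3 alone.

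**Figure D3:**
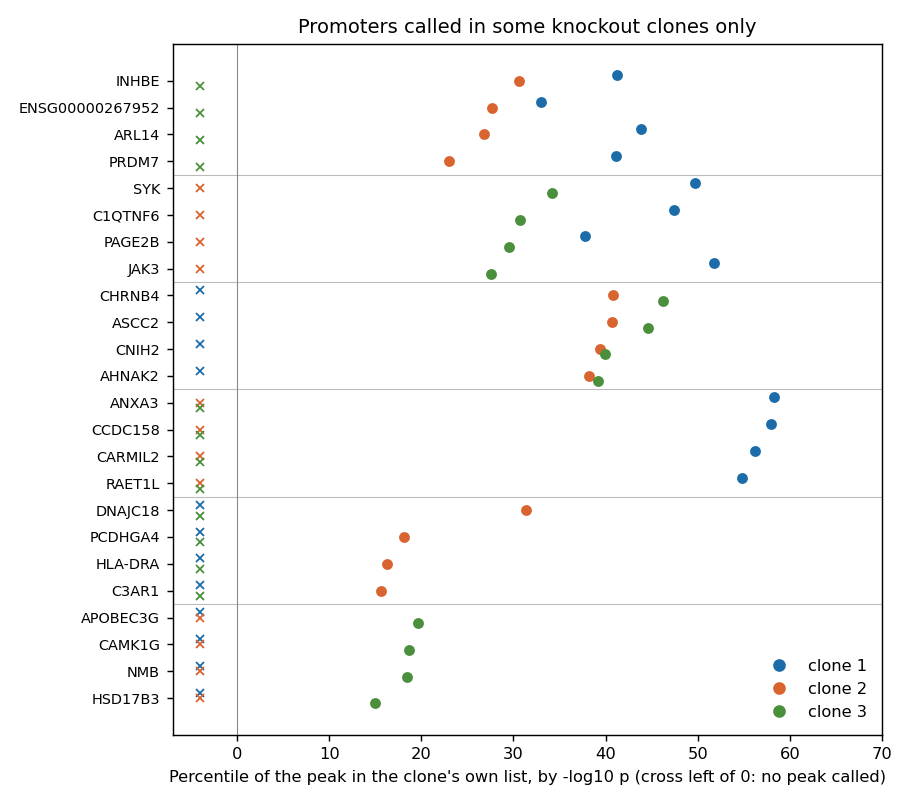
Each row is a promoter called in some knockout clones only, 4 for each of the 6 patterns, and points give the percentile of its peak in each clone's own list by −log10 p, while crosses left of 0 stand for clones with no peak. All rows shown have no peak of a missing clone within 3 kb, and among them the highest of clone 1 alone is ANXA3 at 58.3, that of clone 2 alone DNAJC18 at 31.4 and that of clone 3 alone APOBEC3G at 19.6.

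At promoters called in all 3 clones the ranks still differed at some genes. The widest margins by whole-list percentile had clone 1 above both other clones, at UNC13D and DPPA2. The longer list of clone 1 raises its percentiles, so its margins are not strictly comparable with those of the other clones. UNC13D, which primes secretory granules for release, had percentiles of 71.9 in clone 1, 2.004 in clone 2 and 19.7 in clone 3. DPPA2, a gene of pluripotent and germ cells, had 52.0, 3.49 and 2.77 in the same order. C19orf33 had 92.2, 44.3 and 51.3. At DPPA2 the peaks of clones 2 and 3 were both near the bottom of their lists, while at UNC13D that held for clone 2.

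Clone 1 was below both others at GOLGA5, a golgin, with 55.8 against 87.7 and 85.6, and at ATF6B, a transcription factor of the unfolded protein response, with 60.5 against 92.6 and 87.8. GOLGA5 lies in the same distal part of chromosome 14 as AHNAK2. AK7 lies there too, but had close percentiles in clones 1 and 3, at 44.4 and 45.6. Covered length was nevertheless longest in clone 1 at both genes, for example 1828 bp against 1189 bp and 1051 bp at GOLGA5.

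Clone 2 stood above the others at AK7, an adenylate kinase of cilia, with 71.0 against 44.4 in clone 1 and 45.6 in clone 3. It was also higher at NOC2L, a nucleolar complex protein, with 88.8 against 63.8 and 64.5, and at ENSG00000267059, which shares its promoter with UQCR11, with 92.5 against 65.7 and 67.9. It stood below them at NES, the intermediate filament gene nestin, with 8.87 against 43.5 and 37.9. GARS1, the glycyl-tRNA synthetase gene, had 56.8 in clone 2 against 84.7 and 85.5, and the zinc finger gene ZNF471 had 52.9 against 84.0 and 80.4. In each of these 6 genes clones 1 and 3 lay within 6 percentile points of each other.

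Clone 3 stood above the others at the stress-induced pseudokinase gene TRIB3, with 95.7 against 62.2 in clone 1 and 56.1 in clone 2. ARHGEF2, an activator of RhoA, had 69.5 in clone 3 against 41.0 and 32.3, and the tight junction gene CLDN1 had 83.7 against 53.6 and 55.6. At all 3 genes clone 3 had the shortest covered length, for example 970 bp at CLDN1 against 1911 bp and 2896 bp. It stood below the others at TNFRSF11B, which encodes osteoprotegerin, a decoy receptor that restrains bone resorption, with 46.9 against 96.0 and 91.3. There clone 3 had the longest covered length, 3576 bp against 1299 bp in clone 1 and 1566 bp in clone 2. ADHFE1, a mitochondrial transhydrogenase gene, had 26.5 in clone 3 against 60.9 and 63.0, and CALB2, the calretinin gene, 43.7 against 78.8 and 72.2. At TRIB3, ARHGEF2, CLDN1 and TNFRSF11B rank and width moved in opposite directions, whereas at ADHFE1 and CALB2 clone 3 had both the lowest rank and the shortest covered length, 1324 bp and 1332 bp. Clone 3 was the narrowest at most shared promoters.

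Gene groups differed in how far the clones agreed, and each count is to be read against the 2.58% of all promoters that were called in some clones only. Counts called in all clones and in none are to be read against 65.9% and 31.5%. None of 87 ribosomal protein genes and none of 37 telomere genes varied, with 86 and 37 called in all 3 clones. Such short lists cannot set none apart from 2.58%. The ion channel, solute carrier, cancer-testis and imprinted lists below were near that share. Among 82 interferon response genes 70 (85.4%, against 65.9% of all promoters) were called in all 3 clones, 9 in none and 3 (3.66%) in some, which is near the share over all promoters. These were CXCL11, a chemokine, in clone 2 at percentile 5.83, MX2, a restriction factor, in clones 1 and 3 at 25.4 and 13.6, and XAF1, a pro-apoptotic gene, in clones 2 and 3 at 6.80 and 19.2. The median percentile of the called members was 55.6 in clone 1, 47.0 in clone 2 and 51.6 in clone 3.

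MHC class II genes, whose products present peptides to helper T cells, varied in 4 of 14 (28.6%), 1 was called in all clones and 9 in none. HLA-DRA and CD74, the invariant chain, were called in clone 2, at percentiles of 16.3 and 8.14. HLA-DPB1 was called in clones 1 and 2 at 19.3 and 23.5. HLA-DQB1 was called in clones 1 and 2 at 52.0 and 38.4, and clone 3 had a peak 1312 bp from its 5′ end. Clone 2 thus called 5 members, clone 1 called 3 and clone 3 called 1. The HLA genes among them resemble each other in sequence and many are highly polymorphic. Reads that mapped to several places were removed, so their calls are less certain than those of single-copy genes. CD74 is not an HLA gene, and this limit does not cover it.

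Clustered protocadherins, neuronal adhesion genes each read from its own promoter in tandem arrays on chromosome 5, varied in 8 of 53 (15.1%), with 21 called in all clones and 24 in none. No single clone held these calls. PCDHGA2 at percentile 36.5, PCDHGA7 at 25.9 and PCDHB16 at 9.48 were called in clone 1. PCDHGA4 at 18.1, PCDHB15 at 12.1 and PCDHGA1 at 5.93 were called in clone 2, and PCDHB3 at 12.9 in clone 3. PCDHA8 was called in clones 2 and 3, at 26.7 and 20.9. Array members resemble each other in sequence, which makes single calls here less certain.

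Developmental transcription factors varied in 11 of 203 (5.42%). Among the highest were FOXI2 in clone 1 at 44.3, GATA6, a factor of endoderm and heart, in clones 2 and 3 at 31.5 and 35.2, and FOXS1 in clones 2 and 3 at 10.9 and 30.2. At GATA6 the nearest clone 1 peak lay 6817 bp from the 5′ end. Among 39 HOX genes, which pattern the body axis, 2 varied, both called in clone 1. HOXA3 stood at 86.7 there, but the peak lay 962 bp from its 5′ end and those of clones 2 and 3 at 1068 bp and 1071 bp, so the 1 kb limit alone set them apart. HOXB5 stood at 31.6 in clone 1 with no peak of the other clones within 3 kb.

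Zinc finger genes of chromosome 19, repressors encoded in tandem clusters, varied in 4 of 251 (1.59%), and all 4 were called in clone 1. They were ZNF177 at 50.8, ZNF100 at 42.0, ZNF726 at 37.8 and ZNF738 at 24.1. Cancer-testis genes varied in 2 of 86 (2.33%), XAGE2 in clone 1 at 46.1 and PAGE2B as above, while 71 were called in no clone. The imprinted list varied in 1 of 39, RTL1 in clone 3 at 1.46.

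Ion channel genes varied in 8 of 230 (3.48%). KCNN3, KCNH1, KCNMB2 and CHRNB1 were among those called in clone 1, with percentiles between 18.6 at KCNH1 and 43.9 at CHRNB1. TRPV3 was called in clones 1 and 2, KCNK9 in clones 1 and 3 and CHRNB4 in clones 2 and 3. KCNK9 had a clone 2 peak 1032 bp from the 5′ end, so its absence there rests on the 1 kb limit. Solute carriers varied in 8 of 351 (2.28%). SLC9A3, SLC24A2, SLC6A5, SLC7A3 and SLC49A3 were called in clone 1, SLC20A2 in clone 2, SLC14A1 in clone 3 and the dopamine transporter gene SLC6A3 in clones 1 and 3. Olfactory receptor genes varied in 6 of 415 (1.45%) and keratin genes in 2 of 149 (1.34%), and 403 and 142 of them were called in no clone. Of the members called in any clone, 6 of 12 olfactory receptor genes and 2 of 7 keratin genes varied, against 3.77% over all promoters called in any. The olfactory receptor count is inflated, since OR7C1 and OR7A5 share 1 5′ end and 1 peak. At OR8J3 the peaks of clones 2 and 3 lay 1074 bp and 1277 bp away, and at OR4D2 that of clone 3 lay 1001 bp away. Both of these therefore rest on the 1 kb limit.

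Marker genes of cell types were also looked up. Their counts stand beside 65.9% of all promoters called in all 3 clones and 31.5% in none. RUNX2, COL1A1, SPARC, MSX2, VIM, CDH2 and CDH11, 7 of 15 osteoblast and mesenchymal markers, were called in all 3 clones, with RUNX2 at percentiles of 27.6, 26.9 and 29.2. SP7, ALPL, COL1A2, BGLAP, IBSP, TWIST1 and DLX5 were called in none. SPP1, the osteopontin gene, was called in clone 3 at 2.39, and clones 1 and 2 had peaks 1679 bp and 1905 bp from its 5′ end. Of 9 epithelial markers 4, EPCAM, KRT8, KRT18 and CLDN4, were called in all clones. CDH1, KRT19 and GRHL2 were called in none. Another 2 varied, OVOL1 in clone 1 at 21.8 and ESRP1 in clones 1 and 3 at 40.2 and 29.0. The ESRP1 peak of clone 2 lay 1032 bp away, just beyond the limit. Of 10 haematopoietic markers 8, PTPRC among them, were called in none. The other 2 were called in all clones, IKZF1 at 97.1, 96.0 and 96.3 and CD34 at 67.8, 61.1 and 63.7. Of 8 neural markers 5 were called in all and 3 in none, so neither of these 2 lists differed between clones. The share called in all 3 clones was 62.5% of neural and 46.7% of osteoblast and mesenchymal markers, so these calls do not identify the line.

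Regions of a single clone were spread unevenly over the chromosomes. The share called in all 3 clones ran from 56.5% on chromosome 8 to 77.9% on chromosome 19. Clone 1 alone held 26.6% of the regions of chromosome 21, 20.7% of those of chromosomes 8 and 18 and 20.4% of those of chromosome 16, but 10.4% on chromosome 15, 11.3% on chromosome 22 and 11.9% on chromosome 5. Clone 3 alone held 12.3% of the regions of chromosome 22 and 0.482% of those of the X chromosome. Regions of clones 2 and 3 that clone 1 lacked were most frequent on chromosomes 5 (2.26%) and 22 (2.23%). Chromosomes 5, 15 and 22, with the lowest shares for clone 1 alone, were also those with the highest for clones 2 and 3 together. The share of clone 3 on chromosome 22 fell to 1.39% when peaks needed a −log10 q of at least 3, so it was made up of weak peaks.

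**Figure D4:**
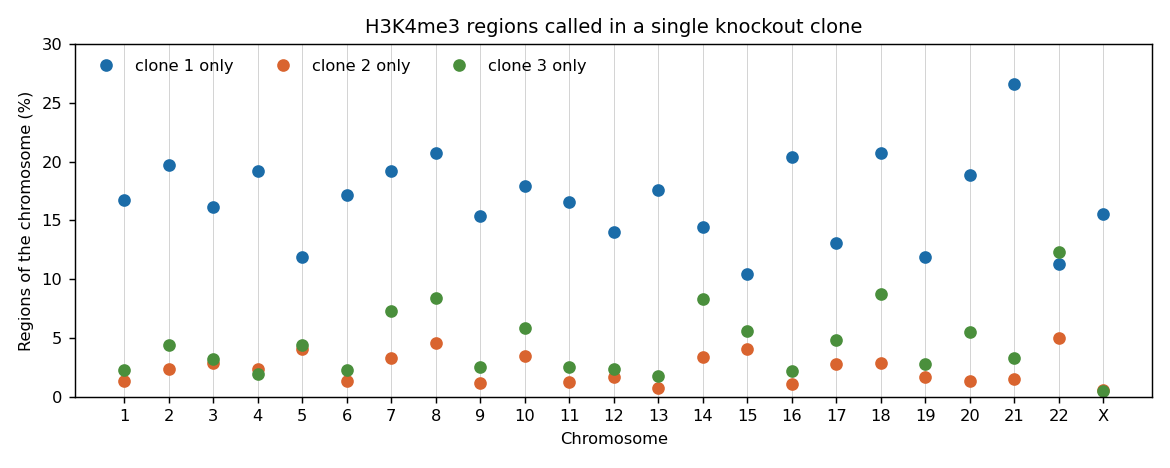
For each chromosome, points give the percentage of its regions called in a single knockout clone. Clone 1 ranges from 10.4% on chromosome 15 to 26.6% on chromosome 21, and clone 3 stands out on chromosome 22 at 12.3%.

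Some of these chromosomes also stood apart in the ranks of regions that all 3 clones called. Clone 1's percentile exceeded the median of the 3 clones by a chromosome median of 8.24 on chromosome 21 and 6.73 on chromosome 16, and by 0 on chromosomes 5, 15 and 22. The same rank from the top gives a higher whole-list percentile in clone 1, whose list is longer. The 19381 shared regions were therefore also ranked among themselves, a choice made after the data were seen. Clone 1 then had the lowest rank of the 3 clones at 36.1% of all shared regions. It was lowest at 74.0% of the 957 shared regions of chromosome 5, at 66.0% of the 474 of chromosome 22 and at 61.4% of the 674 of chromosome 15. It was highest at 56.0% of the 191 of chromosome 21 and at 54.1% of the 776 of chromosome 16, against 37.9% overall. Chromosomes 8 and 18 did not follow, with clone 1 highest at 41.9% and 34.1%.

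Neighbouring windows often shared these differences. Of 289 windows of 10 Mb with at least 20 shared regions, clone 1 was lowest at over 75% of the regions in 17 and highest in 6, clone 2 was lowest in 1 and highest in 1, and clone 3 was neither in any. Blocks were then taken as runs of windows with 1 clone lowest, or highest, at over 65% of the regions. The longest ran over 12 neighbouring windows of chromosome 5, from 70 Mb to its end, where clone 1 was lowest at 520 of 658 shared regions (79.0%). Median ranks there were 41.5 in clone 1, 53.1 in clone 2 and 52.6 in clone 3. In the last 2 windows of chromosome 14, from 90 Mb, clone 1 was lowest at 131 of 146 regions (89.7%), and in the last 2 of chromosome 3, from 180 Mb, at 128 of 158 (81.0%). The first 10 Mb of the block of chromosome 3 had median ranks of 42.0, 62.9 and 67.6.

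Other blocks went the opposite way or belonged to clone 2. Clone 1 was highest at 133 of 163 shared regions (81.6%) between 20 and 40 Mb of chromosome 16, at 98 of 136 (72.1%) between 50 and 80 Mb of chromosome 3, and at 92.3% of the 65 regions beyond 40 Mb of chromosome 21. Between 70 and 80 Mb of chromosome 4, the window that holds ANXA3 and CCDC158, it was highest at 84.4% of 45 regions. Clone 2 was lowest at 108 of 152 regions (71.1%) between 70 and 100 Mb of chromosome 9, the block that holds SYK, and at 114 of 157 (72.6%) between 20 and 40 Mb of chromosome 14. It was highest at 75.5% of the 265 regions in the first 10 Mb of chromosome 19. DNAJC18 lay in the block of chromosome 5 and HSD17B3 in that of chromosome 9. Some other named promoters lay in windows without such a majority for the clone that set them apart. Clone 2 was lowest at 8.57% of regions in the window of C1QTNF6 and 30.3% in that of JAK3. Clone 1 was highest at 36.9% in the window of CARMIL2 and 33.3% in that of RAET1L.

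In some of these blocks, not in all, the calls moved with the ranks. Between 20 and 40 Mb of chromosome 16, 20.5% of regions were called in clone 1 alone, close to the 20.4% of the whole chromosome. None were called in clones 2 and 3 together. Clone 1 was lowest at 66.3% of shared regions between 20 and 40 Mb of chromosome 19. There 0.962% of regions were called in clones 2 and 3 together, near the share over all regions. In the last part of chromosome 14, 7.22% were called in clone 1 alone and 3.89% in clones 2 and 3 together, against 16.5% and 0.923% over all regions. In the chromosome 9 block of clone 2, 8.57% of regions were called in clones 1 and 3 together, against 3.39% over all regions.

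The blocks were defined by −log10 p. Fold enrichment, the caller's ratio of the signal to the expected background, matched the blocks of more than 1 window weakly or not at all. Ranked by fold among the shared regions, clone 1 was lowest at 50.5% of all regions, and at 41.8% on chromosome 5, 47.0% on chromosome 15 and 59.3% on chromosome 22. In the chromosome 5 block the median fold ranks were 51.7, 51.0 and 49.3 in clones 1, 2 and 3. In the chromosome 16 block clone 1 was highest at 19.6% of regions by fold, against 28.1% over all regions by fold and 81.6% by −log10 p. Median fold ranks in this block were 55.5, 57.3 and 59.8, so the direction turned, and over chromosome 16 clone 1 was lowest by fold at 63.02%. Part of the direction remained in some other blocks. In the last part of chromosome 14 clone 1 was lowest by fold at 54.8%, with median fold ranks of 46.2, 51.2 and 52.2. In the chromosome 9 block clone 2 was lowest by fold at 28.9%, against 22.7% over all regions. Its median fold rank there, 51.9, was above the 47.6 of clone 3. By these shares the direction was lost in the chromosome 3 blocks and between 20 and 40 Mb of chromosome 14. Median fold ranks kept it by a small margin in 2 of these. They were 53.3, 55.1 and 55.1 from 180 Mb of chromosome 3, and 49.5, 47.7 and 49.9 in the chromosome 14 block. Between 50 and 80 Mb of chromosome 3 they were 48.9, 54.3 and 52.8, with clone 1 lowest rather than highest. Copy number was not analysed here, and its part in the ranks was not tested.

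**Figure D5:**
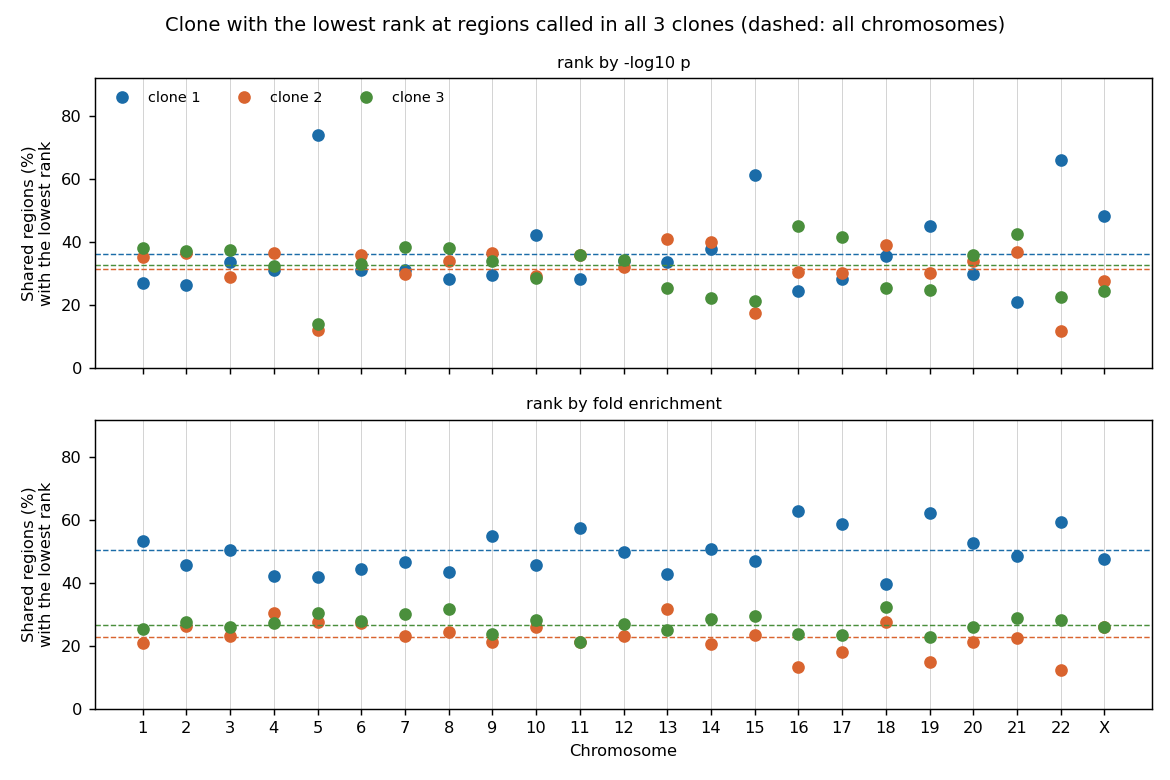
Points give, for each chromosome, the percentage of regions called in all 3 clones at which a clone had the lowest rank, by −log10 p in the upper panel and by fold enrichment in the lower, and dashed lines give the same over all chromosomes. By −log10 p clone 1 stands at 74.0% on chromosome 5, 66.0% on chromosome 22 and 61.4% on chromosome 15, and by fold at 41.8%, 59.3% and 47.0%.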

How the data were processed

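Per the labels and the methods of the study, the authors trimmed paired-end reads with Trimmomatic, aligned them with Bowtie2 2.3.5.1 to GRCh38, discarded duplicates and reads without a single mapping position, and ran MACS2 2.1.1.2 in broad mode on each library rather than on pooled ones. Which input entered each list is not given in the sources used here. The deposited lists hold an integer score, a fold enrichment ratio, −log10 p and −log10 q (p-value and q-value), all averaged over each peak by the caller; values were used as deposited, and only ranks within a list, widths and positions were compared. Regions, promoters (GENCODE release 44, MANE Select or canonical transcripts) and percentiles were computed in Python 3.11.15 with numpy 2.4.6, scipy 1.17.1 and matplotlib 3.10.9, and the merging and ranking steps were tested on simulated lists. Wilson intervals (95%) cover counting error only. The study's methods give depth as a range over samples only, so the depth of each list is unknown. Since every clone has 1 library, no test was run.

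The named genes were, for each pattern of presence in 1 or 2 clones, the 4 with no peak of a missing clone within 3 kb and the highest of the lowest percentiles. They were also, for each clone, the 3 shared promoters furthest above and the 3 furthest below both other clones, then the differing members of each gene list (the 4 highest where over 8), and ZBTB48, CIITA, ACTB and GAPDH. The members and lists were chosen with earlier results of these data known. GAPDH was called in all 3 clones, at percentiles of 67.0, 78.4 and 84.7, and ACTB at 99.7, 97.6 and 99.1. Alternatives were a stricter q, equal list lengths, other overlaps, merging gaps, promoter windows and widths, ranks by fold, autosomes only, and leaving out each clone. A few genes and promoter sequences that these rules select are not reported here.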

Additional observations from a re-analysis of the deposited data

How the results depend on the processing

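Over 202 recomputed values for 26 results, 143 stayed within the spread between clones or, for counts, within 1.5 times. Another 57 moved further, and 2 changed sign. No paired analysis was possible because only 1 group, with 1 library per clone, was compared. With lists of equal length, regions of 1 clone numbered 4308 (1627 for clone 1 and 1235 for clone 2), the promoter share was 62.6%, 7.39% and 4.97% for regions of all, 2 and 1 clones, and the single-clone share 11.3% on chromosome 19 and 21.98% on chromosome 21. With a −log10 q of at least 3, clone 1 alone had 3860 regions, clone 2 alone 307 and clone 3 alone 249. Clone 1 thus kept most of its own regions, while clones 2 and 3 lost most of theirs. Regions of 1 clone then had a median width of 668 bp, and promoter shares were 65.7%, 7.73% and 6.02%. Single-clone shares were 12.003% on chromosome 19 and, for clone 3, 1.39% on chromosome 22. With peaks of at least 500 bp, the counts of clones 1, 2 and 3 alone were 3929, 382 and 574. Median widths of regions in 2 clones and 1 clone were 1014 bp and 759 bp. Promoter shares were 67.2%, 8.04% and 5.67%, and chromosome shares 12.5% and 7.46%. With 50% overlap the promoter shares were 66.2%, 10.7% and 5.49%, the width of regions of 1 clone 556 bp and the chromosome 19 share 19.7%. A 3 kb promoter window gave 62.5%, 7.69% and 6.45%, and the 5′ end of any transcript 68.3%, 13.9% and 9.98%. Ranked by fold, median percentiles were 26.1 and 15.6 for regions of 2 clones and 1 clone.

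Leaving out each clone in turn gave 199 to 424 differing promoters, 4207 to 7493 regions of 1 clone, 954 to 1985 regions of clone 2 alone, 1504 to 2222 of clone 3 alone and 5681 to 5989 of clone 1 alone. It gave promoter shares of 57.3% to 60.01% for regions of every remaining clone and 3.95% to 5.38% for regions of 1, widths of 1515 to 1652 bp for regions of every clone, chromosome 19 shares of 11.2% to 18.3%, chromosome 21 shares of 21.4% to 35.9% and clone 3 shares on chromosome 22 of 15.3% to 17.1%. Leaving out clone 1 gave the lowest count of differing promoters and of regions of 1 clone.

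The chromosome shift of clone 1 depended on the measure. Ranked among shared regions, chosen after seeing the data, it was 0.72 on chromosome 16, 1.43 on chromosome 21, -2.49 on chromosome 22 and -5.10 on chromosome 5. Ranked by fold it was -0.55 on chromosome 16 and 0 on chromosome 21, and by fold among shared regions, also chosen after seeing the data, -2.85 and 0. The cause was not tested. The depth of each list is unknown, and its part in the weak peaks was not tested.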

Other observations

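Single promoters are given here that were picked after their values were seen, and they stand for no list and no shared theme. Of the interferon list 1 of 82 members, XAF1, was called in clones 2 and 3 and missing in clone 1. IFI27 was called at percentile 19.2 in clone 2 and 18.4 in clone 3, with the nearest clone 1 peak 17878 bp away. APOL4 had 15.9 and 19.6, STING1, the adaptor of cytosolic DNA sensing, 12.9 and 16.7, and AIM2, a DNA sensor, 4.80 and 3.68. The complement gene C2 had 18.2 and 9.13. UBD, a ubiquitin-like gene, was called in clone 2 alone at 8.66 and the complement gene CFB in clone 2 alone at 5.59. All of these peaks ranked below percentile 20 of their lists.

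Others of the 44 promoters that clone 1 alone lacked ranked higher or lower. LIF, a cytokine of the interleukin-6 family, stood at 28.5 in clone 2 and 33.6 in clone 3, IL7R at 13.005 and 16.7, the collagen gene COL16A1 at 36.6 and 33.9, and the fibroblast activation gene FAP at 20.2 and 3.01. They too were picked after their values were seen.

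Some regions of 1 clone ranked high by −log10 p with almost no fold enrichment. A 638 bp peak of clone 1 in an intron of DCBLD2, chr3:98894282-98894919, stood at percentile 98.6 with a fold of 1.04. A 969 bp peak of clone 2 in PDGFA-DT, chr7:521507-522475, stood at 67.5 with a fold of 1.02. Peaks with a fold under 1.5 numbered 20 in clone 1, 9 in clone 2 and 6 in clone 3, and 3, 1 and none of them stood above percentile 50.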
